A study of Homo sapiens with 12 samples.

Results

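The 7 genes described here encode the MuvB core of the DREAM and B-MYB-MuvB complexes (LIN9, LIN37, LIN52, LIN54 and RBBP4) and the transcription factors that join MuvB late in the cell cycle (MYBL2, which encodes B-MYB, and FOXM1). They were taken by gene symbol from a table of 60612 named rows, in which each symbol occurred on 1 row. Read counts came from 3′ RNA sequencing of CAMA-1, an established luminal breast cancer cell line that carries the oestrogen receptor (ER), of genotype wild-type. Cells received the vehicle DMSO, abemaciclib at 100 nM (an inhibitor of the kinases CDK4 and CDK6), fulvestrant at 5 nM (an antagonist that leads to ER degradation), or abemaciclib together with fulvestrant at doses that the labels do not repeat. Each of these 4 groups held 3 biological replicates of this single line, so differences between lines are not part of the spread.

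As background, MuvB is a scaffold that is held together through the cell cycle and changes partners. In resting cells it binds a pocket protein of the RB family (p130 or p107) with E2F4 or E2F5 and DP, and this DREAM complex represses cell cycle genes. In S phase the pocket protein leaves and B-MYB takes its place, and FOXM1 joins before mitosis to drive genes of G2 and M phase. DREAM and the RB protein also repress MYBL2 and FOXM1 themselves, and CDK4/6 inhibitors and anti-oestrogens both hold ER-positive cells in G1.

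Totals ranged from 3299119 to 5164667 reads per library. Levels are CPM, read counts scaled to a common library size after TMM correction for composition, and differences are log2 fold changes from edgeR's quasi-likelihood test, with Benjamini-Hochberg adjustment over the 11803 genes that passed the filter on low counts and a threshold of 0.05. Of the 7 genes, 6 passed that filter and LIN37 did not. Luminal markers summed to 5328 to 7285 CPM in all libraries, and those of basal cells, leukocytes and endothelium to at most 1.14 CPM. Of 3 fibroblast markers, COL1A1 was at 14.2 to 25.9 CPM with COL1A2 and DCN at 0. Fulvestrant replicate 3 stood apart: its counts differed from those of its replicates with a chi-square per degree of freedom of 9.72 and 15.3, against 1.87 to 5.59 in all other replicate pairs. Leaving it out, an alternative chosen after seeing the data for the gene lists, ended 2 member calls, both near the threshold (LIN54 with fulvestrant and FOXM1 between the drugs), and raised the genes called between the combination and fulvestrant from 227 to 588. In bulk RNA, fewer cycling cells and less RNA per cell cannot be told apart, and this holds for every value below.

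The promoters of 4 members are shown because DREAM and B-MYB-MuvB reach DNA through 2 kinds of element: LIN54 binds the cell cycle genes homology region (CHR, searched as TTTGAA or TTCGAA), and E2F proteins bind GC-rich sites (searched as TTCCCGC, as TTGGCGC, as TTCGCGC and as TTGCCGC). The sequences are 300 bases of the RefSeq table on GRCh38.p14, from 250 bases before the annotated start to 50 bases after it, on the strand of the gene. Capitals mark the CHR forms in LIN9, the preset E2F-like forms in LIN52 and RBBP4, and an added motif in MYBL2. Other matches were not marked. RefSeq windows matched 6 of the 7 genes (11 windows), and FOXM1 had no entry.
MYBL2, chr20:43666864-43667163, plus strand: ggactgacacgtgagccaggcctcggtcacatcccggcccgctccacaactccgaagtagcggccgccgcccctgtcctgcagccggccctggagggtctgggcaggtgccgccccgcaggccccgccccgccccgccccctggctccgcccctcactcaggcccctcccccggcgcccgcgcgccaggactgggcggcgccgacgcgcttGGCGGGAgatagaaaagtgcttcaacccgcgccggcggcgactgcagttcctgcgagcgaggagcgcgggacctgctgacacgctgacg
LIN9, chr1:226309115-226309414, minus strand: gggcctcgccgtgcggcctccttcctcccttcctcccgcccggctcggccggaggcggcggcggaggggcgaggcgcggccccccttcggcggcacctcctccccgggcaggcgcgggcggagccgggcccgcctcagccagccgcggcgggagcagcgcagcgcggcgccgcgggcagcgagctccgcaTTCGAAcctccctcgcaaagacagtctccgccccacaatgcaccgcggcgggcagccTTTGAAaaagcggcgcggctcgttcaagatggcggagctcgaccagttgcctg
LIN52, chr14:74084706-74085005, plus strand: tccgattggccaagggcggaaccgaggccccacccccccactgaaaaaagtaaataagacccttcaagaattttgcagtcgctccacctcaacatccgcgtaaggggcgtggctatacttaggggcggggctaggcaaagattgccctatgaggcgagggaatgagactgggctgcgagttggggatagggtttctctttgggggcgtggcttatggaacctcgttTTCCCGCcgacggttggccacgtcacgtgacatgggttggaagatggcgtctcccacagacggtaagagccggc
RBBP4, chr1:32650958-32651257, plus strand: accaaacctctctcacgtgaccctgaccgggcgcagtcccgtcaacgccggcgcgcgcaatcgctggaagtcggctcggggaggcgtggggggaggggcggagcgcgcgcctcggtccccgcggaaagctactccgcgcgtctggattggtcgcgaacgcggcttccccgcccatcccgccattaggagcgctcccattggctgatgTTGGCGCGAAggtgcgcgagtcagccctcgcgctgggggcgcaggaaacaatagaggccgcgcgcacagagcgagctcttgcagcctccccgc

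The LIN9 window held both CHR forms, TTCGAA at -60 and TTTGAA at -3 relative to the start. The LIN52 window held TTCCCGC at -24. In RBBP4, TTGGCGC at -43 overlapped TTCGCGC read on the other strand at -40. CCAAT, also searched, lay on the other strand at -246 in the LIN52 window and at -105 and -54 in the RBBP4 window. Of windows not printed, TTTGAA lay in those of LIN54 and in 1 of LIN37, CCAAT on the other strand in another of LIN37, and TTCCCGC in another of LIN9; a further RBBP4 window overlapped the printed one. None of the preset letters lay in the MYBL2 window. The capitals there mark GGCGGGA at -39, an E2F-like motif that was added after this window had been read. A match is only a match of letters: on either strand, 16.4% of all 35116 windows held a CHR form, 13% one of the 4 preset E2F-like forms, 34.6% CCAAT and 15.4% GGCGGGA. The added motif also occurred, on either strand, in windows of LIN9, LIN37, LIN52, LIN54 and RBBP4. These include the printed windows of LIN9, LIN52 and RBBP4, which were not marked for it.

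MYBL2 (chromosome 20, 43667019 to 43716495, plus strand, GRCh38) fell with each drug and was almost without reads under the combination. B-MYB is the MYB family member that replaces the pocket protein on MuvB. Its level in the DMSO libraries was 220, 264 and 271 CPM. With abemaciclib it was 88.4, 85.2 and 79.3 CPM, and with fulvestrant 28.4, 22.8 and 20.3 CPM. Under the combination the 3 libraries held 1, 0 and 0 reads, against 741 to 1389 reads in DMSO. No 2 groups overlapped, and the order from high to low was DMSO, abemaciclib, fulvestrant, combination. The means were 33.5% of the DMSO mean with abemaciclib and 9.48% with fulvestrant. The log2 fold change against DMSO was -1.58 ± 0.10 (SE; edgeR adjusted p = 1.79e-12) for abemaciclib and -3.40 ± 0.12 (edgeR adjusted p = 2.2e-18) for fulvestrant, and fulvestrant lay below abemaciclib by a further -1.82 ± 0.13 (edgeR adjusted p = 9.51e-12).

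With 1 read in 3 libraries, the size of the combination's effect on MYBL2 can be given only with wide counting limits. From pooled reads scaled to library size, the combination was 336 times lower than fulvestrant (1 against 285 reads, exact 95% interval 59.9 to 13335), 1198 times lower than abemaciclib (1 against 1142 reads, 215 to 47344) and 3611 times lower than DMSO (648 to 142667). These intervals cover counting error alone, and reads are not independent molecules. All 3 comparisons passed the threshold (edgeR adjusted p = 3.3e-14, 1.52e-19 and 6.74e-23 in the same order).

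**Figure D1:**
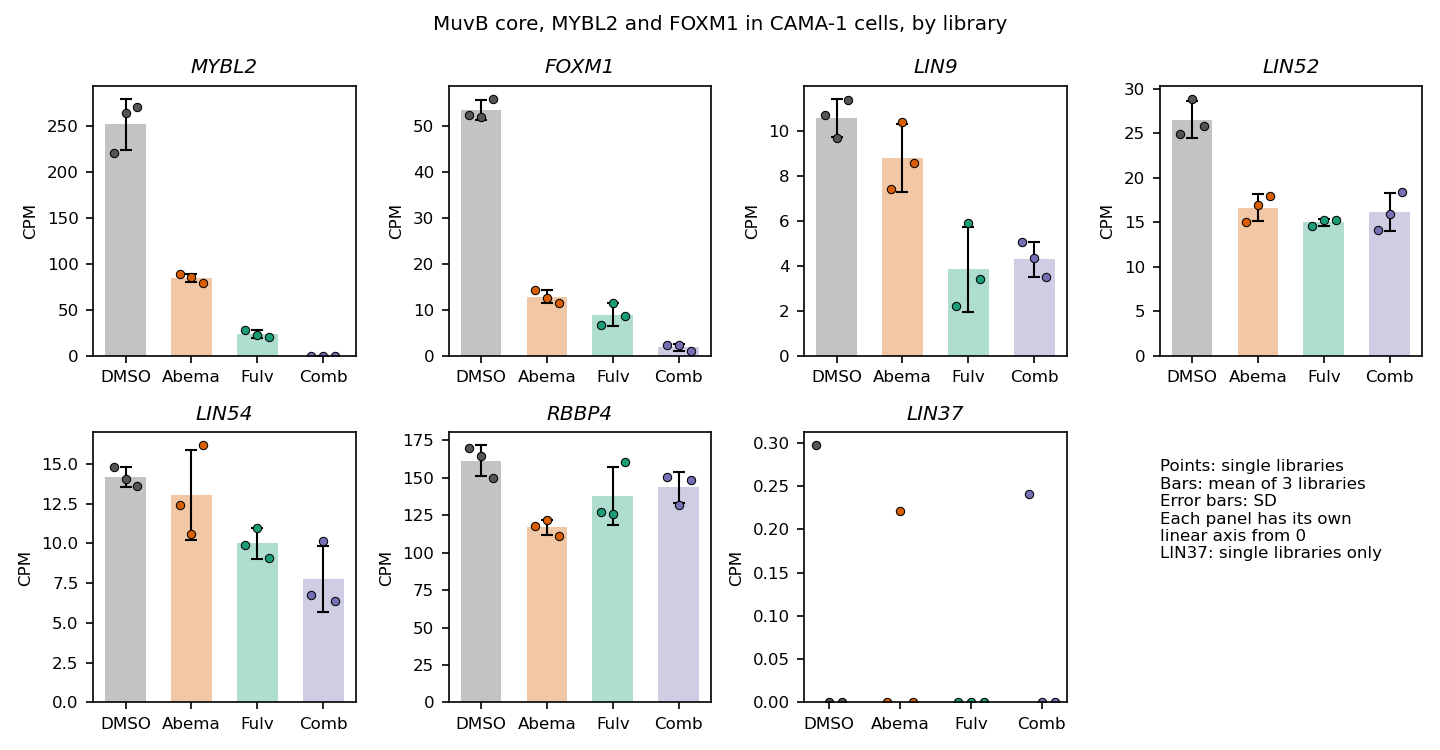
Level of each of the 7 genes (CPM, linear axes from 0, each panel with its own scale) in the 4 treatment groups. Points are single libraries, bars the mean of 3 libraries and error bars the SD; LIN37 is shown by points alone. MYBL2 and FOXM1 step down from DMSO to the combination, whereas the mean of RBBP4 is lowest with abemaciclib alone.

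FOXM1 (chromosome 12, 2857680 to 2877174, minus strand), the forkhead factor that joins MuvB in G2, fell with each drug. It fell further under the combination, where 5 to 11 reads per library remained. Its libraries were at 52.5, 52.1 and 56.0 CPM in DMSO and at 14.4, 12.6 and 11.6 CPM with abemaciclib. With fulvestrant they were at 6.67, 11.6 and 8.66 CPM. Under the combination they were at 2.41, 2.27 and 0.971 CPM, from 10, 11 and 5 reads. All treated libraries lay below all DMSO libraries and all combination libraries lay below those of either drug, while the lowest abemaciclib library (11.62 CPM) and the highest fulvestrant library (11.56 CPM) nearly met. Against DMSO the log2 fold change was -2.05 ± 0.16 for abemaciclib (edgeR adjusted p = 6.88e-11), -2.59 ± 0.18 for fulvestrant (edgeR adjusted p = 1.2e-12) and -4.84 ± 0.22 for the combination (edgeR adjusted p = 2.12e-16). The combination was also lower than abemaciclib (-2.79 ± 0.27, edgeR adjusted p = 4.49e-09) and than fulvestrant (-2.25 ± 0.30, edgeR adjusted p = 8.41e-06). Fulvestrant and abemaciclib differed by -0.54 ± 0.21 (edgeR adjusted p = 0.0489), a call that DESeq2 did not make (adjusted p = 0.0949) and that was lost on leaving out most single libraries, with adjusted p = 0.248 without fulvestrant replicate 1 at the upper end. The last 500 exonic bases of FOXM1 lie within exons of ITFG2 on the opposite strand, and the sources do not say if the strand entered the counting. ITFG2 itself was counted at 1.48 to 5.64 CPM. Under the combination ITFG2 was at 3.85, 3.10 and 5.05 CPM, above FOXM1 in each library. The part of ITFG2 in the FOXM1 values, and in the ratios and interaction drawn from them, was not tested.

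The balance between the factors is given as a description. There were 4.19, 5.07 and 4.83 MYBL2 reads per FOXM1 read in the DMSO libraries. The ratio was 6.14, 6.77 and 6.83 with abemaciclib, above every DMSO library. With fulvestrant it was 4.26, 1.98 and 2.34, and replicate 1 there overlapped DMSO. Under the combination it was 0.1, 0 and 0, so FOXM1 reads outnumbered MYBL2 reads in that group alone. Of the summed CPM of the 7 genes, MYBL2 made up 44.6 to 51.3% in DMSO, 32.4 to 34.6% with abemaciclib, 9.35 to 15.1% with fulvestrant and 0 to 0.134% under the combination. RBBP4 rose in share from 28.4 to 34.4% in DMSO to 80.1 to 83.9% under the combination, while its own mean went from 161 to 144 CPM. These ratios and shares are of 3′ reads, which depend little on transcript length, and were not tested.

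**Figure D2:**
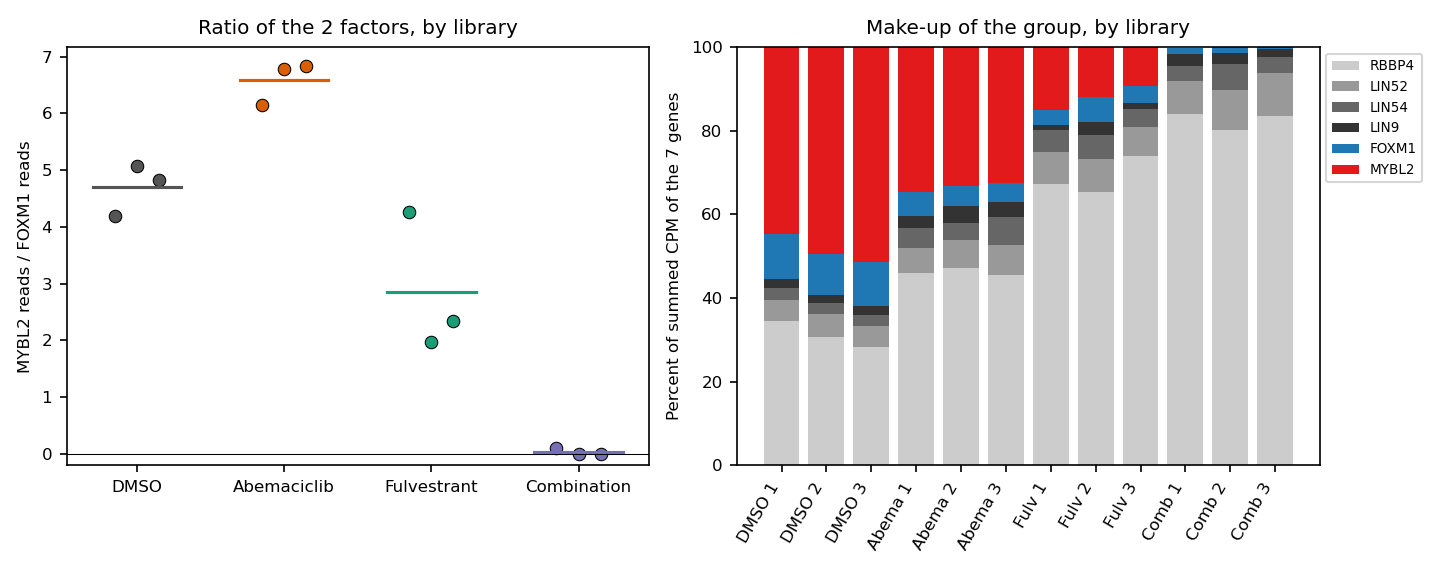
Left, MYBL2 reads per FOXM1 read in each library (points) with the group mean (line). Right, the percent of the summed CPM of the 7 genes that each gene held in each library. The ratio is 6.14 to 6.83 with abemaciclib and 0 to 0.1 under the combination.

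The tested genes of the MuvB core had log2 fold changes between -1.48 and 0.30, in any pairwise comparison. Summed over its 5 genes, the core was at 201 to 221 CPM in DMSO, 152 to 160 CPM with abemaciclib, 154 to 188 CPM with fulvestrant and 162 to 177 CPM under the combination. RBBP4 supplied most of that sum. LIN9, LIN52 and LIN54 together were at 50.5 to 52.6 CPM in DMSO, 34.8 to 42.7 CPM with abemaciclib, 26.7 to 32.2 CPM with fulvestrant and 26.0 to 30.4 CPM under the combination. Counting all 6 tested members, 4 fell with abemaciclib and 0 rose (0 also at an unadjusted p under 0.05 and by DESeq2), where 41.2% of all tested genes passed in either direction (20.7% lower and 20.5% higher). With fulvestrant all 6 fell by edgeR against a background of 51% in either direction, 25.7% lower and 25.3% higher. That count was 4 or 5 in each of the 12 fits that left out 1 library, and 4 by DESeq2, which called 2 of the 4 tested core genes. Under the combination 5 fell against a background of 55.2% in either direction, 27.5% lower and 27.7% higher. These comparisons share the DMSO libraries, and the median of all tested genes was near 0 in each. Groups of 3 libraries that did not overlap were common, at 54.2% of all genes for abemaciclib against DMSO, 54.7% for fulvestrant and 62.1% for the combination.

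LIN52 (chromosome 14, 74084956 to 74201493, plus strand), the subunit that the kinase DYRK1A phosphorylates when DREAM assembles, was lower than in DMSO in every treated group. It was at 24.9, 28.9 and 25.8 CPM in DMSO and at 15.01, 17.0 and 17.9 CPM with abemaciclib. With fulvestrant it was at 14.6, 15.2 and 15.3 CPM, and under the combination at 14.2, 15.9 and 18.4 CPM. No treated library reached the DMSO range, while the 3 treated groups overlapped one another. The log2 fold changes against DMSO were -0.68 ± 0.15, -0.83 ± 0.15 and -0.71 ± 0.15 for abemaciclib, fulvestrant and the combination (edgeR adjusted p = 0.000518, 5.36e-05 and 0.000185). The combination differed from fulvestrant by 0.11 ± 0.16 and from abemaciclib by -0.03 ± 0.16, neither past the threshold (edgeR adjusted p = 0.842 and 0.914).

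LIN9 (chromosome 1, 226231149 to 226309869, minus strand), which helps to bind B-MYB, was low wherever fulvestrant was present. It was at 10.7, 9.69 and 11.4 CPM in DMSO and at 7.40, 10.4 and 8.59 CPM with abemaciclib. With fulvestrant it was at 2.22, 5.92 and 3.42 CPM, from 9 to 21 reads, and under the combination at 5.05, 4.34 and 3.50 CPM. The abemaciclib libraries overlapped DMSO, and both fulvestrant-treated groups lay below both groups without it. The log2 fold change was -0.27 ± 0.24 for abemaciclib (edgeR adjusted p = 0.4), -1.48 ± 0.28 for fulvestrant (edgeR adjusted p = 9.21e-05) and -1.31 ± 0.27 for the combination (edgeR adjusted p = 0.000182). The combination was lower than abemaciclib by -1.04 ± 0.28 (edgeR adjusted p = 0.00448).

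LIN54 (chromosome 4, 82909973 to 83012926, minus strand), the DNA-binding subunit that recognises the CHR, was lowest under the combination. Its libraries were at 14.8, 14.1 and 13.6 CPM in DMSO and at 12.4, 10.6 and 16.2 CPM with abemaciclib. With fulvestrant they were at 9.88, 11.0 and 9.12 CPM, and under the combination at 6.74, 10.1 and 6.41 CPM. Abemaciclib straddled the DMSO range, and combination replicate 2 lay inside the fulvestrant range. The combination was lower than DMSO by -0.86 ± 0.21 (edgeR adjusted p = 0.00111) and than abemaciclib by -0.74 ± 0.21 (edgeR adjusted p = 0.00849), whereas it differed from fulvestrant by -0.36 ± 0.23 (edgeR adjusted p = 0.591). Without abemaciclib replicate 3 or combination replicate 3 the difference from abemaciclib missed the threshold (edgeR adjusted p = 0.0711 and 0.0559). Fulvestrant against DMSO gave -0.50 ± 0.21 (edgeR adjusted p = 0.0453), a call not made by DESeq2 (adjusted p = 0.114) and lost without any 1 of the DMSO replicates, fulvestrant replicate 1 or 3, abemaciclib replicate 1 or combination replicate 1 (edgeR adjusted p = 0.0511 to 0.116).

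RBBP4 (chromosome 1, 32651142 to 32686211, plus strand), a histone-binding WD40 protein that also sits in other chromatin complexes, had a different order of group means. It was at 170, 164 and 150 CPM in DMSO and at 118, 122 and 111 CPM with abemaciclib. With fulvestrant it was at 127, 126 and 160 CPM, and under the combination at 150, 132 and 149 CPM. All libraries with abemaciclib alone lay below those of every other group, and fulvestrant replicate 3 lay within the DMSO range. Fulvestrant against abemaciclib gave 0.24 ± 0.09, not past the threshold (edgeR adjusted p = 0.0585). It was 0.11 (edgeR adjusted p = 0.386) without fulvestrant replicate 3. The threshold was passed without DMSO replicate 1, fulvestrant replicate 1 or fulvestrant replicate 2 (edgeR adjusted p = 0.0494, 0.0379 and 0.0252). Abemaciclib lowered it by -0.46 ± 0.09 (edgeR adjusted p = 0.000247), whereas the combination differed from DMSO by -0.17 ± 0.09 (edgeR adjusted p = 0.13). The combination was higher than abemaciclib by 0.30 ± 0.09 (edgeR adjusted p = 0.0151), but not past the threshold without abemaciclib replicate 3, combination replicate 1 or combination replicate 3 (edgeR adjusted p = 0.0766, 0.0595 and 0.0614). Fulvestrant gave -0.22 ± 0.09 (edgeR adjusted p = 0.0465), with overlapping libraries. DESeq2 did not make that call (adjusted p = 0.0857), and of the 12 fits that each left out 1 library it held only without DMSO replicate 3 (-0.26, edgeR adjusted p = 0.0384) or fulvestrant replicate 3 (-0.35, edgeR adjusted p = 0.00106).

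LIN37 (chromosome 19, 35748361 to 35754519, plus strand), the subunit needed for repression by DREAM, had 1 read in DMSO replicate 1, in abemaciclib replicate 2 and in combination replicate 1, and 0 in the other libraries. No difference was detectable at this depth. The last 500 exonic bases of LIN37 lie wholly within exons of a readthrough gene on the same strand (ENSG00000188223), and the part of this overlap in the low count was not tested.

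**Figure D3:**
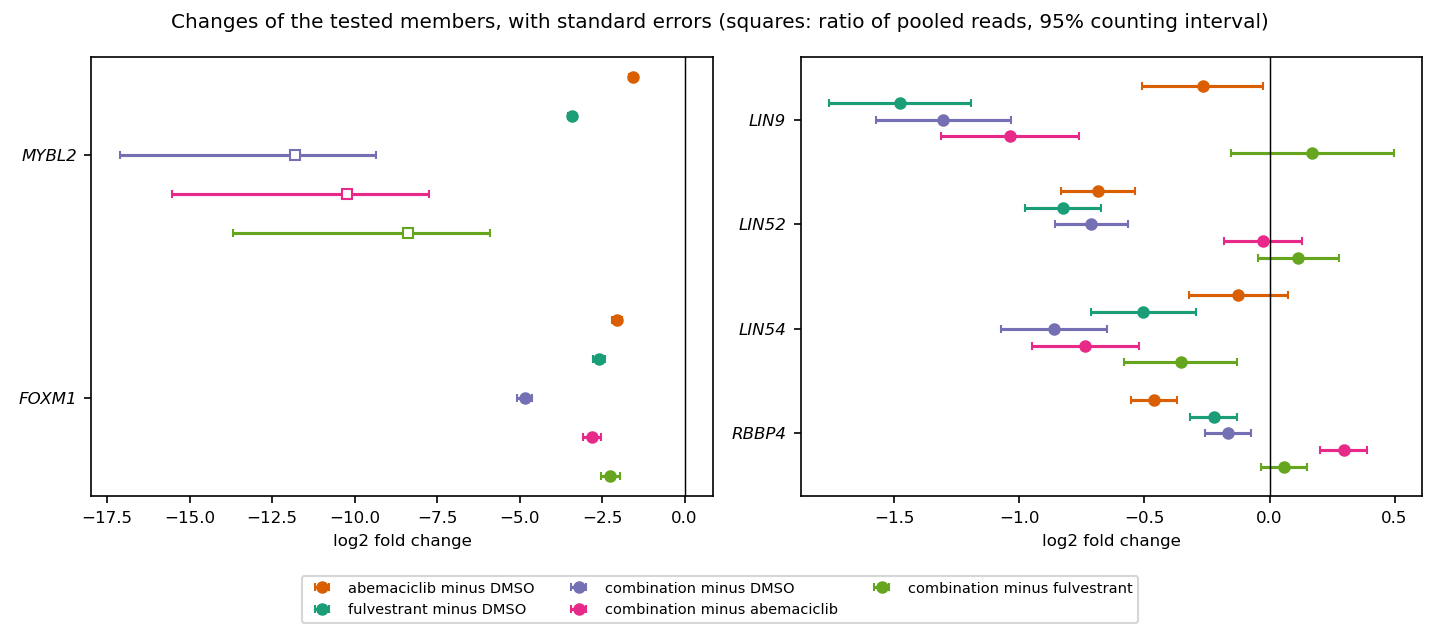
Log2 fold changes of the 6 tested genes in 5 comparisons, MYBL2 and FOXM1 on the left and the core on the right, with different horizontal scales. Circles carry standard errors; open squares for MYBL2 are ratios of pooled reads with 95% counting intervals. The core lies within -1.48 and 0.30.

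The combination was also set against each single drug. Adding fulvestrant to abemaciclib lowered MYBL2, FOXM1, LIN9 and LIN54 and raised RBBP4. That made 5 of 6 members, beside 33.5% of all genes in either direction (17.7% lower and 15.9% higher). The count was 3 without abemaciclib replicate 3 or combination replicate 3, where LIN54 and RBBP4 missed the threshold. Adding abemaciclib to fulvestrant lowered MYBL2 and FOXM1, which made 2 of 6 where 1.92% of all genes passed (1.63% lower and 0.297% higher). None of the 4 tested core genes passed there (0 by edgeR, 0 at an unadjusted p under 0.05 and 0 by DESeq2). Their 95% intervals were not narrow, since that for LIN54 ran from -0.80 to 0.09. Fulvestrant against abemaciclib gave 3 lower members (MYBL2, FOXM1 and LIN9), where 29% of all genes passed (15.5% lower and 13.4% higher). The share of all genes whose groups did not overlap was 48.5% for combination against abemaciclib, 14.6% for combination against fulvestrant and 40.2% for fulvestrant against abemaciclib.

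Whether abemaciclib acted differently once fulvestrant was present was tested by the interaction, the log2 change by abemaciclib with fulvestrant minus that without it. The labels do not repeat the doses in the combination. This test, like the comparisons with each single drug, takes them to equal the single-drug doses. The interaction passed for 3 of 6 members against 21.1% of all genes, higher for 2 (9.49% of all genes) and lower for 1 (11.6%). That split of all genes, 1120 higher and 1373 lower, became 1626 and 1020 when libraries were scaled by total counts alone, while the calls of the 3 members held. For MYBL2 the fitted value was -6.33 (edgeR adjusted p = 1.36e-09), given without an SE because it rests on 1 combination read. Setting the combination to the upper end of its counting interval, an alternative added after the data had been seen, left -4.31. For FOXM1 it was -0.20 ± 0.34 (edgeR adjusted p = 0.716), with a 95% interval from -0.87 to 0.46. For LIN52 it was 0.80 ± 0.22 (edgeR adjusted p = 0.0096) and for RBBP4 0.52 ± 0.13 (edgeR adjusted p = 0.00545), where the change by abemaciclib was -0.68 without and 0.11 with fulvestrant for LIN52, and -0.46 and 0.06 for RBBP4. LIN9 (0.44 ± 0.41, edgeR adjusted p = 0.478) and LIN54 (-0.23 ± 0.30, edgeR adjusted p = 0.631) did not pass.

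**Figure D4:**
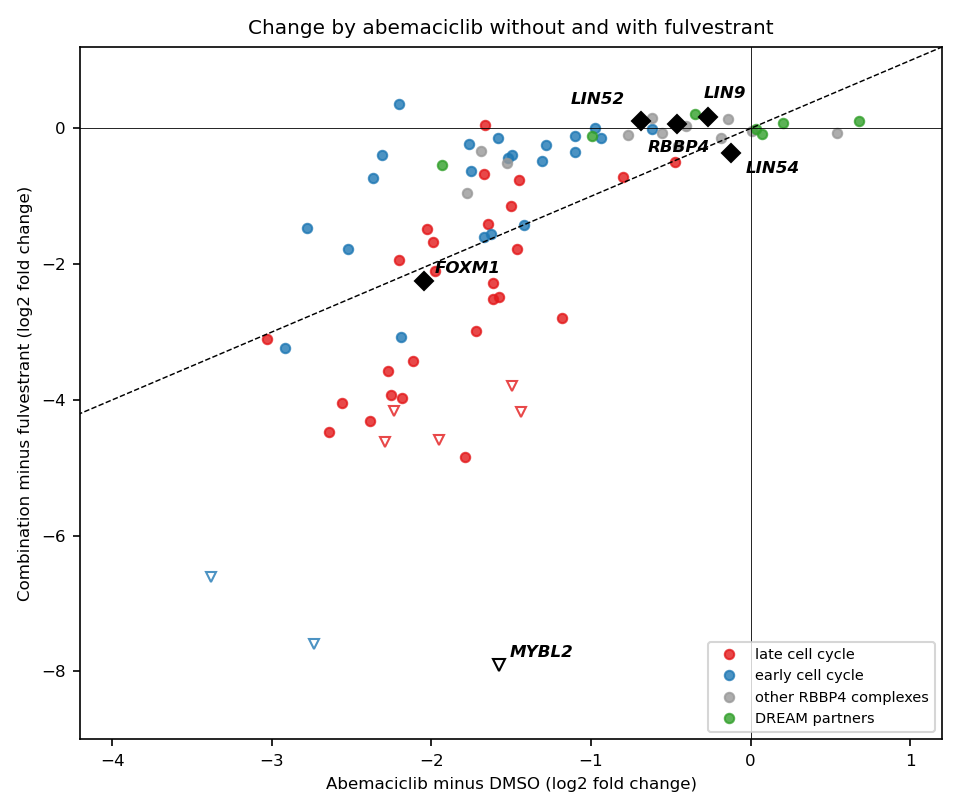
Log2 fold change by abemaciclib without fulvestrant (horizontal) and with it (vertical) for the tested members (black) and the genes of 4 lists (colours); the dashed line marks equal change. Open triangles are genes with 3 or fewer reads in the combination, MYBL2 included, whose vertical value depends on the fit's prior count. FOXM1 lies near the line at -2.05 and -2.25, and LIN52 and RBBP4 lie near 0 on the vertical axis.

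The gene lists below were written with earlier results of these data known, so their counts beside shares of all genes are a description. Among the 7 listed partners of MuvB in DREAM and its assembly kinase, all tested, 3 fell and 1 rose with abemaciclib (median 0.03). Of all genes, 20.7% fell and 20.5% rose. With fulvestrant 2 fell (median -0.17), a share near the 25.7% of all genes that fell, and 3 fell without fulvestrant replicate 3. RBL1, which encodes p107, fell by 1.93 on the log2 scale with abemaciclib (edgeR adjusted p = 5.58e-09), from 32.6 ± 0.800 to 8.46 ± 0.821 CPM (SD, n = 3 each). TFDP1, which encodes DP1, fell by 0.99 (edgeR adjusted p = 1.73e-07). RBL2, which encodes p130, was at 0.20 (edgeR adjusted p = 0.18) and E2F4 at 0.03 (edgeR adjusted p = 0.868). DYRK1A, the kinase of LIN52, fell by 0.35 with abemaciclib (edgeR adjusted p = 0.0117) and was 0.39 higher in the combination than with abemaciclib (edgeR adjusted p = 0.00594). E2F5, a partner in repression, rose by 0.68 with abemaciclib (edgeR adjusted p = 0.0237), and TFDP2, which encodes DP2, was lower in the combination than with abemaciclib (-0.41, edgeR adjusted p = 0.024). Between the combination and fulvestrant 0 of the 7 passed by edgeR and 0 by DESeq2, with 1 at an unadjusted p under 0.05 (median -0.01), where 1.92% of all genes passed.

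The other MYB family members are MYBL1 and MYB. MYBL1, which encodes A-MYB, was at 68.1 ± 7.64 CPM in DMSO and 72.4 ± 4.41 CPM with abemaciclib (0.10, edgeR adjusted p = 0.554). It fell by 2.74 with fulvestrant (edgeR adjusted p = 4.39e-14), to 10.0 ± 2.98 CPM, and was at 9.32 ± 1.37 CPM under the combination (all SD, n = 3). MYB rose by 0.41 with abemaciclib (edgeR adjusted p = 0.0164), from 23.8 ± 3.86 to 31.4 ± 1.56 CPM, and was at 23.6 ± 1.00 CPM with fulvestrant (SD, n = 3 each; edgeR adjusted p = 0.991 against DMSO). Of these 2 genes, 0 passed between the combination and fulvestrant by edgeR, 0 by DESeq2 and 0 at an unadjusted p under 0.05, where 1.92% of all genes passed.

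Of the 11 cyclins, kinases and ubiquitin ligase parts that act on B-MYB or FOXM1, 10 were tested. With abemaciclib 7 fell and 2 rose (median -1.38), beside 20.7% lower and 20.5% higher among all genes. With fulvestrant 8 fell (median -1.62), beside 25.7% lower. CCNA2, the cyclin A that with CDK2 phosphorylates B-MYB, was at -3.48 with abemaciclib (edgeR adjusted p = 2.68e-16) and at -3.74 with fulvestrant (edgeR adjusted p = 3.59e-17), and held 2 reads under the combination. CDK1, the kinase of mitotic entry, was at -2.25 with abemaciclib (edgeR adjusted p = 1.32e-12) and held 9 reads under the combination. PLK1, a mitotic kinase that acts on FOXM1, was at -2.19 and -3.68 (edgeR adjusted p = 5.72e-14 and 1.11e-17). CCNF, which encodes cyclin F, a protein that binds and restrains B-MYB, was at -1.67 with abemaciclib and -1.57 with fulvestrant (edgeR adjusted p = 3.3e-11 and 5e-11). CCNF stayed at 22.6 ± 1.35 CPM under the combination (SD, n = 3), with an interaction of 1.72 (edgeR adjusted p = 2.07e-07). CCND1, the cyclin D1 that activates CDK4 and CDK6, rose with abemaciclib by 1.10 on the log2 scale (edgeR adjusted p = 1.2e-12), from 617 ± 5.64 to 1327 ± 35.5 CPM, and was at 195 ± 9.88 CPM with fulvestrant (SD, n = 3 each).

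The late cell cycle genes listed as bound by B-MYB-MuvB and FOXM1 fell with each drug and under the combination. Binding was not measured in these libraries, and this list was written with earlier results of these data known. Of 32, 31 were tested, and all 31 fell with abemaciclib (median -1.79), with fulvestrant (median -3.13) and under the combination (median -6.13, or -5.89 with genes of 3 or fewer reads set at 3 reads), where 20.7%, 25.7% and 27.5% of all genes fell. Adding abemaciclib to fulvestrant lowered 28 of the 31 (median -2.79), beside a background of 1.63% lower and a median of all genes near 0. AURKB, the kinase of the chromosomal passenger complex, fell by 3.03 with abemaciclib (edgeR adjusted p = 6.01e-14), from 81.3 ± 17.5 to 9.99 ± 0.365 CPM, and was at 1.03 ± 0.476 CPM under the combination (SD, n = 3 each). UBE2C, an enzyme that serves the anaphase-promoting complex, fell by 6.06 between abemaciclib and the combination (edgeR adjusted p = 1.39e-13), to 8 reads in 3 libraries. PTTG1, the securin, fell by 2.64 with abemaciclib (edgeR adjusted p = 4.37e-18), from 362 ± 15.7 to 58.1 ± 3.62 CPM. With fulvestrant CDC20, an activator of the same complex, was at -3.80 (edgeR adjusted p = 2.73e-14) and DLGAP5, a spindle protein, at -3.75 (edgeR adjusted p = 8.17e-14). NEK2, a centrosomal kinase, held 2 reads under the combination against 668 in DMSO. The interaction passed the threshold for 11 of the 31, 9 lower and 2 higher (median -0.91), beside 11.6% lower and 9.49% higher among all genes; without fulvestrant replicate 3 these counts were 11 and 2.

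The 24 early cell cycle genes of the E2F and DREAM group fell with abemaciclib, with fulvestrant and under the combination in all 24 cases. Their list, too, was written with earlier results of these data known. Their medians were -1.65 with abemaciclib, -2.39 with fulvestrant and -2.75 under the combination. Among all genes 20.7%, 25.7% and 27.5% fell in these comparisons. Adding abemaciclib to fulvestrant lowered 10 of 24 (median -0.46), beside 1.63% of all genes, and 12 without fulvestrant replicate 3. The interaction was higher for 15 and lower for 1 past the threshold (median 0.90), beside 9.49% higher and 11.6% lower among all genes. RRM2, a subunit of ribonucleotide reductase, fell by 3.38 with abemaciclib (edgeR adjusted p = 7.35e-19) and held 2 reads under the combination against 2908 in DMSO. TYMS, thymidylate synthase, held 0 reads under the combination against 1106 in DMSO. TK1, thymidine kinase, fell by 2.92 with abemaciclib (edgeR adjusted p = 8.55e-15). CDT1, which loads the replicative helicase, fell by 3.82 with fulvestrant (edgeR adjusted p = 1.16e-17), from 89.9 ± 4.87 to 6.34 ± 0.932 CPM (SD, n = 3 each).

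RBBP4 and its paralogue RBBP7 also serve chromatin assembly, Polycomb and histone deacetylase complexes. Of 12 genes of these complexes, 7 fell and 1 rose with abemaciclib (median -0.50), beside 20.7% lower and 20.5% higher among all genes, and 8 fell with fulvestrant (median -0.55), beside 25.7% lower. EZH2, the methyltransferase of PRC2, was at -1.69 and -1.73 (edgeR adjusted p = 4.3e-15 and 1.19e-15), and CHAF1A, the large subunit of chromatin assembly factor 1, at -1.53 and -2.25 (edgeR adjusted p = 2.96e-11 and 1.73e-14). CHAF1B, the middle subunit, was at -1.78 and -2.04 (edgeR adjusted p = 5.13e-08 and 5.75e-09). RBBP7 was at -0.45 and -0.47 (edgeR adjusted p = 0.00974 and 0.00596) and its interaction was 0.20 (edgeR adjusted p = 0.497). With abemaciclib HDAC1 and HDAC2 fell (-0.77 and -0.56, edgeR adjusted p = 2.17e-06 and 4.58e-05). MTA1 rose (0.54, edgeR adjusted p = 0.0207), while EED, SIN3A, MTA2 and CHD4 did not pass. Between the combination and fulvestrant 0 of the 12 passed by edgeR and 0 by DESeq2, with 3 at an unadjusted p under 0.05 (median -0.08), where 1.92% of all genes passed; 2 were lower without fulvestrant replicate 3. The interaction passed for 5, all higher (median 0.46), beside 9.49% of all genes.

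The genes whose log2 CPM followed each member most closely over the 12 libraries, among 8472 genes with a mean of at least 10 CPM, are given as a description, since all points share these libraries and groups. MYBL2 was closest to KIF4A and TACC3 (Pearson r = 0.987 each) and to CKAP2L (0.983), all genes of the mitotic apparatus. FOXM1 was closest to DTL (0.996), TK1 (0.989) and HJURP (0.988). LIN9 was closest to MPV17L2 and HDDC2 (0.967 each), LIN52 to NACA (0.970), LIN54 to CSTF2 (0.925) and RBBP4 to ZFP91 (0.929). Between members, r was 0.940 for MYBL2 with FOXM1. For MYBL2 it was 0.834 with LIN54, 0.658 with LIN9, 0.551 with LIN52 and -0.001 with RBBP4. For FOXM1 it was 0.835 with LIN54, 0.743 with LIN9, 0.714 with LIN52 and 0.233 with RBBP4.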

How the data were processed

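Raw gene-level read counts that the authors deposited were used, from 12 QuantSeq 3′ libraries (3 biological replicates in each of 4 treatment groups, grouped by the treatment label). Per the submitters' processing notes and the study's methods, reads were trimmed, aligned to hg38 with STAR and counted with featureCounts 2.0.1 on a GENCODE annotation. Strand and multi-overlap settings are not given in the sources used here. The counts carry no molecular identifiers, so intervals cover counting error only.

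Of 60656 rows, 44 had no gene name (0 reads) and were left out. In R 4.3.3, edgeR 4.0.16 (limma 3.58.1) kept 11803 genes with filterByExpr (minimum count 10, minimum total 15). With TMM factors, 1 quasi-likelihood model of 4 group means was fitted to all 12 libraries. P values were adjusted over all genes (Benjamini-Hochberg, threshold 0.05). The SE of a log2 fold change was taken as its absolute value divided by the square root of the test's F statistic. Replicates were compared, none agreed within sampling noise, and fulvestrant replicate 3 differed most from the others of its group. Alternatives were DESeq2 1.42.0, other scalings, no filter, only the groups compared, a replicate block, thinning to the smallest total and leaving out each library. Scripts were tested on simulated counts.

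All 7 members are named. From each list, the 2 genes with the largest change past the threshold and at least 10 CPM in a compared group were named for abemaciclib or fulvestrant against DMSO and for the combination against abemaciclib; any gene of a list of up to 12 could be. Gene positions and exon overlaps were read from GENCODE v44 (GRCh38), a later release than the study's methods name for the counts. The members and lists were chosen with earlier results of these data known.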

Additional observations from a re-analysis of the deposited data

Results flagged for a closer look

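For 3 genes the change by abemaciclib differed with and without fulvestrant, by edgeR's test of the difference itself. MYBL2 had a fitted difference of -6.33 on the log2 scale (edgeR adjusted p = 1.36e-09), resting on 1 read in the combination group, and LIN52 one of 0.80 (edgeR adjusted p = 0.0096). RBBP4 had 0.52 (edgeR adjusted p = 0.00545). In MYBL2 the fitted fall with abemaciclib was larger with fulvestrant than without it. In LIN52 and RBBP4 the change by abemaciclib was -0.68 and -0.46 without fulvestrant, and 0.11 and 0.06 with it. What lies behind these differences was not tested.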

How the results depend on the processing

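Over the alternatives, 775 member values kept their direction and side of the threshold, 46 lost a call, 3 gained one and 11 changed sign; all 11 were of differences not past the threshold, and the cause was not tested. LIN54 with abemaciclib ranged from -0.29 to 0.01 (0.00598) on leaving out single libraries. LIN52 between combination and abemaciclib became 0.0257 with total counts and 0.15 thinned, and ranged from -0.14 to 0.06 (0.0553) without single libraries. Combination against fulvestrant ranged from -0.11 to 0.58 for LIN9 and from -0.00296 to 0.18 for RBBP4. The interaction became 0.00960 for LIN54 and 0.0224 for FOXM1 when thinned, and ranged from -0.41 to 0.12 for FOXM1 without single libraries. Members called between combination and abemaciclib ranged from 3 (without abemaciclib replicate 3 or combination replicate 3) to 5. Genes called between combination and fulvestrant were 227, were 125 with only those groups, and ranged from 146 (without combination replicate 3) to 588 (without fulvestrant replicate 3). With total counts the interaction called 1626 genes higher and 1020 lower, against 1120 and 1373. The calls of MYBL2, LIN9 and LIN52 and those of FOXM1 against DMSO and between combination and each drug held in all alternatives. With the replicate block, LIN54 (-0.50, adjusted p = 0.058) and RBBP4 (-0.23, adjusted p = 0.0539) with fulvestrant, and FOXM1 between the drugs (-0.54, adjusted p = 0.062), missed the threshold; no other call changed. Replicate numbers did not pair the libraries: correlations of same-numbered libraries were -0.215 to 0.119, with 2 of 18 over 0.1. Only 5 of 12 libraries correlated best with their own number. Libraries of unlike number gave -0.208 to 0.301, the highest between DMSO replicate 1 and fulvestrant replicate 3. What these 2 libraries share was not tested. At 9 to 74 reads per library for LIN9 and LIN54, depth limits small differences.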
